A study of Mus musculus with 15 samples.

Results

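Immature macrophages, the middle of 3 stages in a culture of mouse bone marrow, were set at once against the stage before and the stage after them. The table of 9 libraries (3 for each stage) held 34245 genes, of which 13359 had enough reads to be tested. A gene was taken as a peak gene when it was higher at the immature stage than at both flanking stages, and as a dip gene when it was lower than at both, each with an adjusted p under 0.05 (quasi-likelihood test of edgeR, p-values adjusted by Benjamini and Hochberg over all genes tested). There were 328 peak genes (2.46% of the genes tested) and 335 dip genes (2.51%). Genes that moved the same way at both steps were the 274 genes of steady rise (2.05%) and the 323 of steady fall (2.42%). The remaining 12099 genes changed at 1 step or, for 6060 of them, at neither.

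All cells came from the bone marrow of male C57BL/6 mice aged 8 to 10 weeks, with no transgene or mutation named. They were cultured with CSF-1 (colony-stimulating factor 1), on which macrophages depend, and Ion Torrent sequencing was used for the RNA. Precursors were cells that had not attached, harvested once they had spent 2 days in 15% fetal calf serum and 0.6 ng/ml CSF-1. Immature macrophages were such precursors after 4 more days at 12 ng/ml with 10% serum, 6 days in all. Mature macrophages followed another schedule of 1 day at 0.6 ng/ml, 2 days at 12 ng/ml and 7 days at 120 ng/ml, 10 days in all, with 10% serum after the first day, so they had not been through the full immature culture. CSF-1 concentration and days in culture changed together at both steps, serum changed with them at the first, and their parts cannot be told apart. A separate table held 6 libraries of mature macrophages held in 120 ng/ml CSF-1 for 48 h more, 3 without and 3 with 20 ng/ml interleukin 4 (IL4), a cytokine of type 2 immunity. Each group has mice numbered 1 to 3 in its titles, while the columns of the IL4 table carry mouse codes that differ between its arms. The labels do not otherwise say whether cultures came from separate animals, so p-values measure only the spread between these libraries, which may be technical.

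As background, cells make cholesterol from acetyl-CoA through the mevalonate pathway, whose genes are switched on together by the factor SREBP2 when sterols in the membrane of the endoplasmic reticulum run low. Excess sterol is sensed by the nuclear receptor LXR, which drives efflux genes such as Abca1 and Abcg1. ID proteins bind E proteins and other helix-loop-helix factors and keep them from DNA, and ID and inhibitory SMAD genes are standard targets of bone morphogenetic protein (BMP) signalling. Macrophages depend on CSF-1 for survival and growth, and dual-specificity phosphatases and cyclin D genes are among the genes that follow the ERK kinases downstream of its receptor.

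Libraries held 7897769 to 22167294 reads assigned to genes in the differentiation table and 2408531 to 4214266 in the IL4 table. Levels below are in CPM, each gene's share of the reads of its library on edgeR's scale, with library totals adjusted by the TMM method, listed in the order of libraries 1, 2 and 3. Differences are log2 fold changes ± SE of the fit, with the immature stage as the first term, and gene coordinates are those of GRCm38. Macrophage markers were high in the immature cells. Csf1r, the CSF-1 receptor, was at 937, 988 and 775 CPM in precursors, 4253, 2476 and 1875 CPM in immature and 1458, 1861 and 2311 CPM in mature macrophages. The summed level of 25 macrophage marker genes was 8742 to 12178 CPM in precursors, 35251 to 67389 CPM in immature and 55959.9 to 82332 CPM in mature macrophages, and that of 25 neutrophil granule genes was 16226 to 23958, 288 to 383 and 20.4 to 32.1 CPM. In bulk RNA, fewer cells of a type and less RNA per cell cannot be told apart. Immature library 1 stood apart from the other libraries of its stage. Mki67, a marker of dividing cells, was at 1178, 1013 and 1153 CPM in precursors, 105, 331 and 359 CPM in immature and 122, 209 and 402 CPM in mature macrophages, and summed replication-dependent histone RNA was 1823 to 10799 CPM over the immature libraries. Results that rest on that library are given with and without it.

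**Figure D1:**
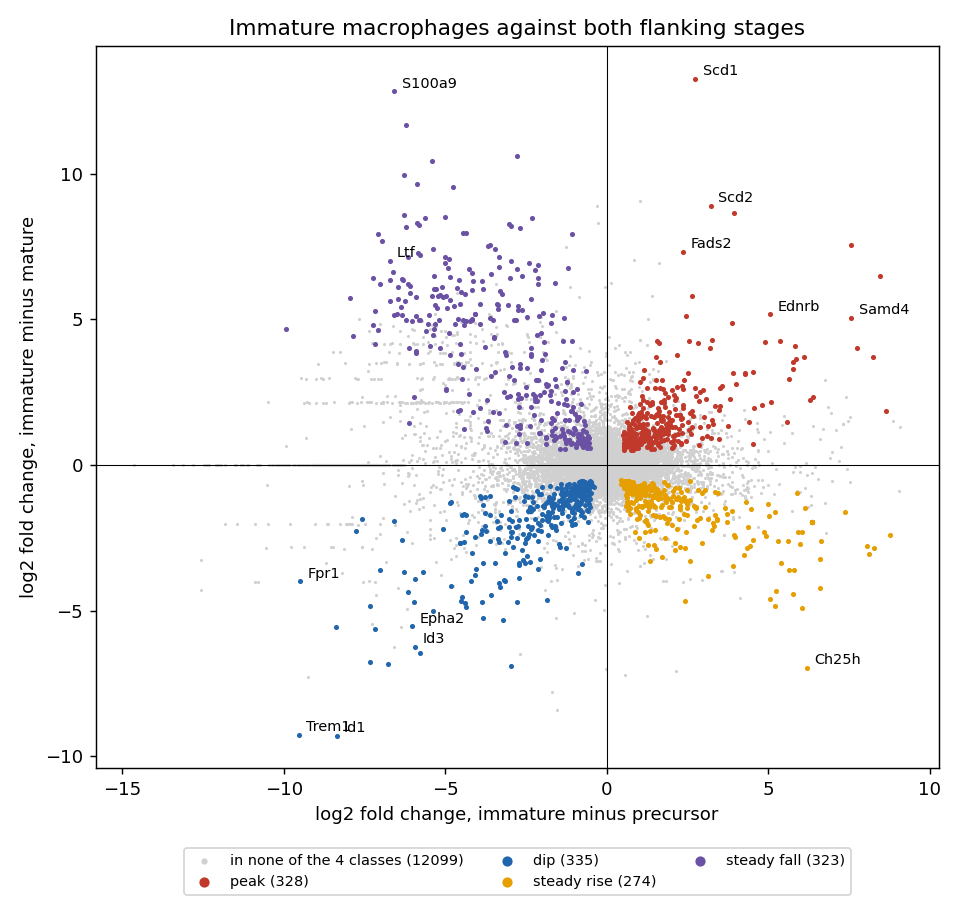
Each point is 1 of 13359 genes tested, placed by its log2 fold change of immature macrophages over precursors (horizontal) and over mature macrophages (vertical), and coloured by class. Peak genes (328) fill the upper right and dip genes (335) the lower left, while genes of steady rise (274) and steady fall (323) fill the other corners, and Scd1 and Trem1 lie far out among peak and dip genes.

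Between immature macrophages and precursors, 3009 genes (22.5%) were higher and 3559 (26.6%) lower at the immature stage. Between immature and mature macrophages, 986 (7.38%) were higher and 1005 (7.52%) lower. Both comparisons use the same 3 immature libraries, so a chance deviation of those libraries moves a gene toward the peak or the dip class in both at once. For peak genes the median log2 fold change was 1.49 over precursors and 1.26 over mature macrophages, and dip genes of -1.62 and -1.42, against -0.07 and 0.00 over all genes tested. At least 2-fold in both comparisons were 182 peak genes and 206 dip genes. These folds come from the same values that chose the genes, so they describe the classes and do not test them. The flanking stages were often near each other in these classes, which the rule favours, since a peak or dip gene must turn back. Between mature macrophages and precursors, 211 of 328 peak genes and 233 of 335 dip genes did not pass the test, against 6104 of all 13359 genes tested. Fitted levels were within 2-fold for 243 (74.1%) and 259 (77.3%), against 7602 (56.9%) of all genes tested. Among peak genes the median level was 26.2 CPM in precursors, 75.4 in immature and 27.9 in mature macrophages, and among dip genes it was 34.1, 11.2 and 29.9 CPM. Immature libraries overlapped neither flanking stage for 311 peak genes (94.8%) and 325 dip genes (97%), against 21.6% of all genes tested. Where a lack of overlap is given below for a gene, it is therefore usual for its class and adds no separate support.

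The steady classes had another shape, which their definition sets, since 2 steps in the same direction add up from the first stage to the last. Genes of steady rise went from a median of 10.4 CPM in precursors to 31.4 and then 69.2 CPM, a median log2 difference of 3.03 from the first stage to the last. Genes of steady fall went from 44.3 to 3.58 and then 0.249 CPM, a median log2 difference of -7.20 from the first stage to the last. The median was -2.97 for immature minus precursor and -3.84 for mature minus immature. Each was larger in size than the peak and dip medians of a single comparison. At so low a mature level, folds are limited by depth. Of 25 neutrophil granule genes tested, 18 fell at both steps, as did 11 of 19 monocyte genes, and no peak or dip gene was among the neutrophil genes. Steady falls were fewer in the lists of other marrow cells, with 6 of 16 stem and progenitor genes, 4 of 19 erythroid and megakaryocyte genes, 2 of 16 eosinophil, mast cell and basophil genes, 1 of 14 B cell genes and 0 of 9 T and NK cell genes. Most genes of these lists had already fallen at the first step. In the same order, 13, 16, 16, 13 and 6 were lower than in precursors, against 26.6% of all genes tested. The eosinophil, mast cell and basophil genes summed to 231 to 291 CPM in precursors, 4.26 to 6.90 in immature and 7.25 to 9.49 in mature macrophages. S100a9, a calcium-binding protein of neutrophils, was at 6816, 5390.1 and 8062 CPM in precursors, 81.7, 53.2 and 76.4 CPM in immature and 0, 0 and 0 CPM in mature macrophages. Ltf, the granule protein lactoferrin, was at 2040.3, 1833 and 2510.2 CPM in precursors, 22.2, 15.9 and 22.4 CPM in immature and 0.405, 0 and 0 CPM in mature macrophages. Both genes were low in every immature library and at 0 reads, or nearly so, in mature macrophages. S100a9 had 2155 reads in the immature libraries and was at least 806-fold lower in mature macrophages, with 3 reads over the group as the floor. Ch25h, which makes 25-hydroxycholesterol, was among the largest steady rises, at 0, 0 and 0 CPM in precursors, 0.709, 0.307 and 1.15 CPM in immature and 64.1, 95.4 and 108 CPM in mature macrophages, and Fat3, an atypical cadherin, was at 0, 0.323 and 0.161 CPM in precursors, 10.6, 9.0 and 12.5 CPM in immature and 283, 198 and 216 CPM in mature macrophages.

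Sterol synthesis was the list with the most peak genes. Of 24 genes of cholesterol synthesis tested, 22 were higher in immature macrophages than at both flanking stages, with median log2 fold changes over the 24 of 1.67 against precursors and 1.91 against mature macrophages. The list was 1 of 49 written with earlier results of these data known, so its count describes these libraries and does not test the pathway independently. The other 2 were Hsd17b7, which passed against precursors only, and Srebf2, the gene of SREBP2 itself, which passed against mature macrophages only. The genes ran the whole length of the pathway. Hmgcs1, which makes HMG-CoA, was at 45.6, 45.6 and 51.5 CPM in precursors, 177, 277 and 259 CPM in immature and 27.1, 53.6 and 29.5 CPM in mature macrophages. Mvd, which makes isopentenyl diphosphate, was at 21.3, 20.7 and 24.6 CPM in precursors, 90.6, 128 and 129 CPM in immature and 19.4, 13.9 and 12.2 CPM in mature macrophages. Every immature library of both genes lay above every library of the other stages, by 2.32 and 2.39 on the log2 scale over precursors (adjusted p = 8.30e-05 and 1.85e-05 by edgeR) and by 2.70 and 2.93 over mature macrophages (adjusted p = 0.000243 and 4.30e-05). Mvd overlaps Gm20388 on the opposite strand, and reads of such a pair cannot be told apart when strand is not counted.

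Fdps, which makes farnesyl diphosphate, was at 50.6, 64 and 76.9 CPM in precursors, 185, 332 and 467 CPM in immature and 43.4, 68.3 and 49.9 CPM in mature macrophages. Lss, which closes the sterol rings, was at 8.49, 12.6 and 11.8 CPM in precursors, 62.9, 143 and 164 CPM in immature and 28.7, 32.1 and 30.1 CPM in mature macrophages. Its mature libraries were also above its precursor libraries, so the immature peak stood on unequal sides. Insig1, which holds SREBP in the endoplasmic reticulum when sterols are plentiful and is itself an SREBP target (ENSMUSG00000045294, chromosome 5, 28071363 to 28078662, plus strand), was at 36.2, 29.5 and 30.9 CPM in precursors, 206, 286 and 261 CPM in immature and 24.9, 60.4 and 40.6 CPM in mature macrophages. Its log2 fold change was 2.96 ± 0.30, adjusted p = 2.72e-05, over precursors and 2.58 ± 0.29, adjusted p = 0.000383, over mature macrophages. Acat2, an acetoacetyl-CoA thiolase (ENSMUSG00000023832, chromosome 17, 12942890 to 12960747, minus strand), was at 7.9, 10.7 and 10.0 CPM in precursors, 25.9, 79.5 and 83.2 CPM in immature and 9.07, 13.2 and 7.73 CPM in mature macrophages. All 3 immature libraries of Acat2 lay above the rest, library 1 by the least, with log2 fold changes of 2.71 ± 0.41 and 2.66 ± 0.41, and 43.7% of the 31-base words of its transcripts also occur in other genes, so its reads may be shared. Near the edge of the call were Idi1, at an adjusted p = 0.0482 against precursors (edgeR), and Pmvk, at 0.0413 against mature macrophages. Idi1 missed the threshold without any 1 of the 3 precursor libraries or of immature libraries 2 and 3 (adjusted p = 0.0650 to 0.138), and Pmvk missed it without any 1 of 7 libraries (adjusted p = 0.0515 to 0.116). With the mouse number as a block, Idi1 had an adjusted p = 0.0750 and Pmvk 0.0825. The list held 22 peak genes without immature library 1 and 15 without immature library 2.

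**Figure D2:**
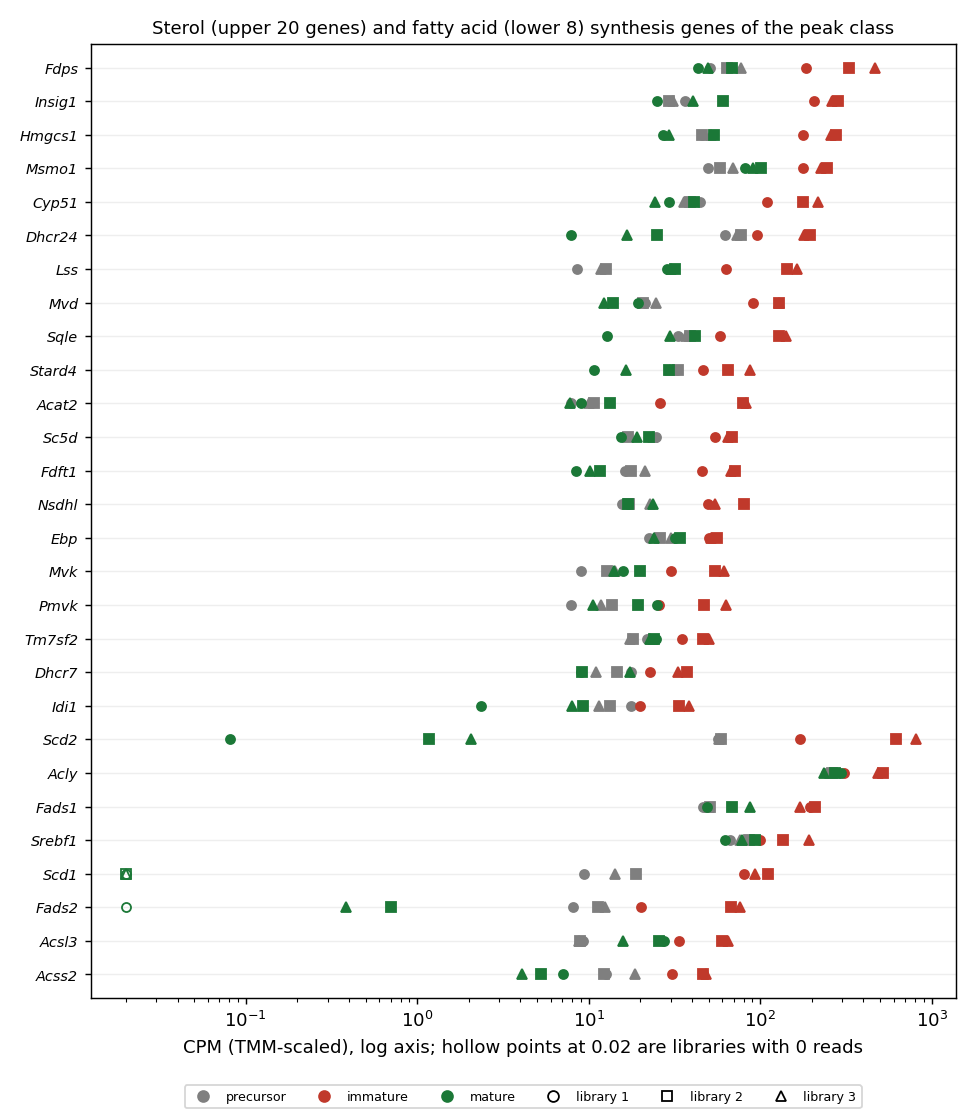
CPM on a log axis of 20 of the 22 sterol genes and of the 8 fatty acid genes of the peak class, 1 row a gene and 1 point a library, with colour for the stage and shape for the library number. Immature points lie to the right of the others, immature library 1 is the lowest of its stage for each sterol gene drawn, and Scd1 has hollow mature points because it had 0 reads there.

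The promoters of the sterol genes are shown where a known sterol motif was found, because the gene group moved together. RefSeq start sites (GRCm38.p6) were matched for 15 of the 22 genes, and the window from 250 bases before to 50 bases after the start was searched on both strands. The core of the sterol response element bound by SREBP, searched as CACNCCAC, was in 3 of the 15 (20.0%), 23 of 248 peak promoters (9.27%), 15 of 271 dip promoters (5.54%) and 591 of 9710 promoters of all genes tested (6.09%). It was as frequent in steady fall promoters, at 22 of 236 (9.32%), as in peak promoters, and was in 9 of 200 steady rise promoters (4.5%) and in 0 of the 5 matched promoters of fatty acid peak genes. The sequences run 5′ to 3′ on the strand of the gene and end at the base before the start site, and capitals mark the matches. Insig1 is on the plus strand at chr5:28071162-28071411, Hmgcs1 on the plus strand at chr13:119690101-119690350 and Acat2 on the minus strand at chr17:12960726-12960975.
Insig1: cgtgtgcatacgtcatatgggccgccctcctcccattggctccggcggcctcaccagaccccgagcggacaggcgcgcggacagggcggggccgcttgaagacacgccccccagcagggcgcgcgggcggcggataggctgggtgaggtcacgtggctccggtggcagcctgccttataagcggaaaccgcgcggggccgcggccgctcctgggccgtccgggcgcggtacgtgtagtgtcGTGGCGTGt
Hmgcs1: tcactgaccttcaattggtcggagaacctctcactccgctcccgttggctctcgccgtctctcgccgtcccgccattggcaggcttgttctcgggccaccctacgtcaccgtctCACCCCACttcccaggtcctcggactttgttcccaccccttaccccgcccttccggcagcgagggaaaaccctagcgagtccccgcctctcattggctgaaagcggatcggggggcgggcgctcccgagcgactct
Acat2: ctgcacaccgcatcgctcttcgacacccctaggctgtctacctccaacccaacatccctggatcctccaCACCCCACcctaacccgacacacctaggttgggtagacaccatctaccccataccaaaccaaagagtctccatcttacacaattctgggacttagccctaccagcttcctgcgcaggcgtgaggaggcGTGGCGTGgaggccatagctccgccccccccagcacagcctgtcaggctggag
Insig1 and Hmgcs1 hold 1 match each, 9 and 136 bases before the start, and Acat2 holds 2, at 181 and 53 bases before it. CCAAT, the box bound by the factor NF-Y, was in 13 of the 15 sterol promoters (86.7%), against 105 of 248 peak promoters (42.3%) and 3791 of 9710 in all (39.0%). A match describes these letters only, and the other 12 windows simply do not hold the searched core. The E-box CACGTG was in 33 of 248 peak promoters (13.3%), 31 of 271 dip promoters (11.4%) and 1003 of 9710 in all (10.3%), and median GC content was 61.7% in peak and 62.3% in dip promoters against 60.7% in all.

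Fatty acid synthesis followed in part. Of 16 genes tested, 8 were peak genes, 11 were higher than in precursors and 10 higher than in mature macrophages. Over all genes tested these shares were 2.46%, 22.5% and 7.38%. Scd2, a stearoyl-CoA desaturase that makes monounsaturated fatty acids (ENSMUSG00000025203, chromosome 19, 44293676 to 44306864, plus strand), was at 56.8, 58.8 and 57.6 CPM in precursors, 171, 619 and 811 CPM in immature and 0.0810, 1.17 and 2.07 CPM in mature macrophages. Immature macrophages were 3.21 ± 0.60 above precursors (adjusted p = 0.00143) and 8.89 ± 0.82 above mature macrophages (adjusted p = 0.000105), the last at 9.90 without mature library 3 (edgeR). Scd1, its relative (ENSMUSG00000037071, chromosome 19, 44394451 to 44407709, minus strand), was at 9.42, 18.9 and 14.3 CPM in precursors, 80.2, 112 and 93.4 CPM in immature and 0, 0 and 0 CPM in mature macrophages. With 2839 reads in the immature libraries and 0 in the mature ones, Scd1 was at least 1061-fold higher, taking 3 reads over the mature group as the floor, and 2.74 ± 0.28 above precursors on the log2 scale. Counting floors and intervals cover counting error only. Fads2, the delta-6 desaturase of polyunsaturated fatty acids, was at 8.1, 11.3 and 12.4 CPM in precursors, 20.3, 67.2 and 76 CPM in immature and 0, 0.702 and 0.383 CPM in mature macrophages, and Fads1, the delta-5 desaturase, at 46.2, 51.2 and 50.2 CPM in precursors, 196, 207 and 171 CPM in immature and 49, 68.3 and 87 CPM in mature macrophages. The fold of Fads2 over mature macrophages was 7.32 ± 0.74 on the log2 scale, or 6.69 without mature library 1 and 8.05 without mature library 2. So for Scd1, Scd2 and Fads2 the mature libraries of the differentiation table lay below the precursors, while Fads1 did not share that low end. Fasn, the fatty acid synthase, was not a peak gene, at 191, 223 and 147 CPM in precursors, 107, 265 and 336 CPM in immature and 38.7, 84.8 and 64 CPM in mature macrophages, since it did not pass against precursors (adjusted p = 0.497 by edgeR). Srebf1, the gene of SREBP1, and Acly, which supplies acetyl-CoA, were in the class with adjusted p = 0.0351 and 0.0484 against mature macrophages, and each missed the threshold without any 1 of 7 or 8 of the libraries (adjusted p = 0.0514 to 0.101 and 0.0651 to 0.199), as Acly did with the mouse number as a block (0.0863). Without immature library 2 the list held 5 peak genes.

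Genes of sterol export were mixed. Of 14 efflux genes and LXR targets tested, 4 were peak genes, namely Abcg1, Cyp27a1, Lpcat3 and Apoe, and 1, Ch25h, rose steadily. Abcg1, which exports cholesterol to lipoproteins (ENSMUSG00000024030, chromosome 17, 31057698 to 31115777, plus strand), was at 23.6, 29.9 and 16.2 CPM in precursors, 271, 326 and 221 CPM in immature and 61.8, 17 and 46.8 CPM in mature macrophages, with log2 fold changes of 3.55 ± 0.43 over precursors and 2.70 ± 0.41 over mature macrophages (adjusted p = 8.87e-05 and 0.00191). Abca1, its partner in efflux, was at 45.3, 59.8 and 19.7 CPM in precursors, 646, 471 and 341 CPM in immature and 358, 141 and 128 CPM in mature macrophages. It was higher than in precursors (adjusted p = 0.000271 by edgeR) and did not pass against mature macrophages (adjusted p = 0.106). Cyp27a1, a mitochondrial sterol hydroxylase, was at 15.7, 16.3 and 33.2 CPM in precursors, 229, 92.9 and 47.5 CPM in immature and 17.1, 12.6 and 11.3 CPM in mature macrophages, with its highest value in immature library 1, and its log2 fold changes of 2.51 and 3.17 were 1.71 and 2.36 without that library. Apoe, the apolipoprotein that carries exported lipid, was at 679, 778 and 748 CPM in precursors, 5146, 1649 and 842 CPM in immature and 371, 789.9 and 227 CPM in mature macrophages. Its immature libraries overlapped neither flanking stage and differed widely, and its place in the class depended on single libraries. Apoe had an adjusted p = 0.0311 against precursors and 0.0237 against mature macrophages (edgeR), and without immature library 1 the log2 fold changes were 0.77 (adjusted p = 0.181) and 1.43 (adjusted p = 0.0710). Against precursors, leaving out any 1 precursor library gave Apoe an adjusted p of 0.0739 to 0.0910, without mature library 1 or 3 it was 0.0744 or 0.0547 against mature macrophages (with a log2 fold change of 3.09 without mature library 2, against 2.46), and with the mouse number as a block it was 0.0574 against precursors. With limma on the deposited log2 RPM values Apoe was 1.03 above precursors (adjusted p = 0.138), and with the precursors left out of the fit its adjusted p against mature macrophages was 0.0641. Of the lipid uptake and storage list, 1 of 16 genes peaked. It was Fabp5, a fatty acid carrier, at 85.3, 94.6 and 53.2 CPM in precursors, 974, 940.4 and 691 CPM in immature and 286, 153 and 257 CPM in mature macrophages. Scarb1, a receptor for high-density lipoprotein, was at 57.5, 66.8 and 68.4 CPM in precursors, 236, 262 and 176 CPM in immature and 41.1, 50.2 and 78.1 CPM in mature macrophages, and Psap, whose product helps degrade sphingolipids in lysosomes, at 3274, 3803 and 3978 CPM in precursors, 20138, 12846 and 10018 CPM in immature and 5699.7, 3959 and 5211 CPM in mature macrophages. All 3 had no overlap between the immature and the other libraries. With limma on the log2 RPM values the authors deposited, Psap was 0.67 above precursors and did not pass (adjusted p = 0.130), against 1.96 with edgeR on the counts. Of the lysosomal list, 3 of 40 genes were peak genes, Psap among them, against 2.46% of all genes tested. Higher than in precursors were 35 of 40, against 22.5% of all genes tested. Beside mature macrophages 3 were higher and 2 lower, near the 7.38% and 7.52% of all genes tested.

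Other peak genes were of varied kinds. Ednrb, an endothelin receptor (ENSMUSG00000022122, chromosome 14, 103814625 to 103844173, minus strand), was at 1.25, 1.13 and 3.45 CPM in precursors, 82.9, 64.1 and 39.9 CPM in immature and 2.1, 1.4 and 1.61 CPM in mature macrophages, with log2 fold changes of 5.05 ± 0.46 and 5.17 ± 0.47 (adjusted p = 1.39e-05 and 9.49e-05). Without precursor library 3 the first was 5.71, and with limma on the deposited log2 RPM values 5.98. Slco2b1, an organic anion transporter, was at 3.49, 3.07 and 4.09 CPM in precursors, 72.3, 72.1 and 58.5 CPM in immature and 1.3, 8.54 and 12.8 CPM in mature macrophages, with 3.17 over mature macrophages, or 3.84 without mature library 3. Cd93, a receptor of the C-type lectin group, was at 401, 440.2 and 389.6 CPM in precursors, 1142, 1309 and 1249.6 CPM in immature and 717, 647 and 846 CPM in mature macrophages. Against mature macrophages Cd93 passed at adjusted p = 0.0202 and missed the threshold without immature library 2 (0.0928) or mature library 2 (0.0654), and with the precursors left out of the fit (0.0543). Clec10a, a lectin that binds galactose-type sugars, was at 15.1, 12.7 and 20.4 CPM in precursors, 278, 90.8 and 71.8 CPM in immature and 14.7, 5.85 and 6.51 CPM in mature macrophages, with 3.20 and 4.02, or 2.35 and 3.17 without immature library 1. Cbr2, a carbonyl reductase, was at 3.49, 5.81 and 2.17 CPM in precursors, 79, 68.6 and 82.1 CPM in immature and 9.71, 11.7 and 5.28 CPM in mature macrophages, and its immature libraries lay close together. Mmp27, a matrix metalloproteinase, was at 1.32, 3.67 and 1.61 CPM in precursors, 86.1, 51 and 52.3 CPM in immature and 25.4, 8.89 and 11.3 CPM in mature macrophages, with 4.79 and 2.05, or 5.43 over precursors without precursor library 2, 5.80 over precursors with limma on the deposited log2 RPM values and 2.64 over mature macrophages without mature library 1.

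Cd28 and Cd4, known best from T cells, were also peak genes. Cd28 (ENSMUSG00000026012, chromosome 1, 60716800 to 60773359, plus strand) was at 3.16, 3.76 and 3.85 CPM in precursors, 166, 89.6 and 62.2 CPM in immature and 7.61, 3.51 and 5.59 CPM in mature macrophages, with log2 fold changes of 4.88 ± 0.41 and 4.23 ± 0.40 (adjusted p = 8.32e-06 and 0.000115). Cd4 was at 2.77, 2.71 and 3.21 CPM in precursors, 32.8, 11.8 and 2.81 CPM in immature and 0.324, 0.819 and 0.306 CPM in mature macrophages, so library 3 of the immature stage lay among the precursors, and without immature library 1 its adjusted p was 0.0726 against precursors and its log2 fold changes 1.35 and 3.98, against 2.46 and 5.10 with it, the last 4.07 with limma on the deposited log2 RPM values. Of 9 T and NK cell genes tested, these 2 peaked, Il7r was higher than in precursors, and 6 were lower. The summed level of the list was 46.5 to 58.1 CPM in precursors, 119 to 271 CPM in immature and 22.9 to 77.5 CPM in mature macrophages. Among other members of the list, Cd8a, Cd8b1 and Trbc1 had 0 reads in all 3 immature libraries, and Cd3d was at 0, 0.205 and 0 CPM. These members were chosen after their values were seen, and Cd3e, Cd3g, Trac and Trbc2 are not given here. Which cells held the Cd28 and Cd4 RNA was not tested.

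Interferon genes were mostly outside the classes, as were 90.6% of all genes tested. Of 37 tested, 3 were peak genes, against 2.46% of all genes tested. Higher than in precursors were 8, against 22.5% of all genes tested, and higher than in mature macrophages 9, against 7.38%. Ifit2, which restrains viral translation, was at 17.7, 28.5 and 6.9 CPM in precursors, 236, 132 and 76.9 CPM in immature and 29.9, 36.2 and 27.2 CPM in mature macrophages. Cmpk2, a nucleotide kinase next to the antiviral gene Rsad2, was at 35.8, 42.2 and 14.3 CPM in precursors, 85.7, 67.5 and 64.5 CPM in immature and 16.7, 14.7 and 16.6 CPM in mature macrophages. Stat2, part of the factor that carries the type I interferon signal, was at 73.8, 107 and 45 CPM in precursors, 154, 159 and 121 CPM in immature and 49.6, 73.4 and 50.9 CPM in mature macrophages, with an adjusted p = 0.0208 against precursors and 0.0132 against mature macrophages (edgeR). Stat2 missed the threshold against precursors without precursor library 1 or 3 or immature library 2 (adjusted p = 0.0587 to 0.0644) and against mature macrophages without immature library 2 (0.0540). Precursor library 3 was the lowest of its stage for all 3 genes, and without immature library 3 the list held 5 peak genes. No gene of the lists of DNA replication (38 tested), mitosis (40), replication-dependent histones (66) or mitochondrially encoded genes (13) was in any of the 4 classes. The classes need a call in both comparisons, and 90.6% of all genes tested were in none of them. Lower than in precursors were 14, 3, 50 and 10 of these genes in that order, against 26.6% of all genes tested. Against mature macrophages 1 mitosis gene passed, while 7.38% of all genes tested were higher and 7.52% lower. Summed histone RNA was 28784 to 30226.5 CPM in precursors, 1823 to 10799 CPM in immature and 2913 to 9410 CPM in mature macrophages. Of 80 ribosomal protein genes 4 were peak genes.

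Dip genes included 3 ID genes. Id1 (ENSMUSG00000042745, chromosome 2, 152736251 to 152737410, plus strand) was at 25.4, 29.3 and 19.9 CPM in precursors, 0.0788, 0 and 0.128 CPM in immature and 7.37, 108 and 27.9 CPM in mature macrophages. With 2 reads over the 3 immature libraries, it was 393-fold lower than in precursors (95% counting interval 108.5 to 3246) and 614-fold lower than in mature macrophages (170 to 5075). Id3 (ENSMUSG00000007872, chromosome 4, 136143497 to 136145755, plus strand) was at 109.7, 113 and 118 CPM in precursors, 1.89, 1.64 and 2.04 CPM in immature and 65.9, 256 and 103 CPM in mature macrophages, a log2 fold change of -5.93 ± 0.51 against precursors (adjusted p = 9.36e-06) and -6.25 ± 0.51 against mature macrophages (adjusted p = 4.84e-05). Id2 was at 105, 101 and 98.4 CPM in precursors, 18.7, 14.1 and 19.3 CPM in immature and 108, 83.5 and 144 CPM in mature macrophages, with -2.54 ± 0.23 and -2.69 ± 0.23. In each of the 3 genes all immature libraries lay below all others, as is usual for dip genes. Mature library 2 was the highest for Id1 and Id3, and without it the log2 fold changes against mature macrophages were -7.87 for Id1, from -9.29, and -5.50 for Id3, from -6.25.

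A list of BMP and SMAD genes, ID genes included, was gathered after the data had been seen, so its count is a description. Of 18 tested, 8 were dip genes, 2 were higher than in precursors and no member was higher than in mature macrophages. Besides Id1, Id2 and Id3 these were Smad6 and Smad7, the inhibitory SMADs, Pmepa1, another inhibitor of the pathway, Bmpr1a, a BMP receptor, and Skil, a repressor of SMADs. Smad7 was at 32.5, 34.3 and 35.4 CPM in precursors, 2.68, 3.07 and 4.98 CPM in immature and 6.31, 16 and 12.3 CPM in mature macrophages, and its 3 immature libraries lay below all others. Smad6 was at 10.3, 9.09 and 8.19 CPM in precursors, 1.26, 0.921 and 2.04 CPM in immature and 5.42, 29 and 8.65 CPM in mature macrophages, with -3.36 against mature macrophages, or -2.34 without mature library 2. Pmepa1 was at 2.83, 7.03 and 4.01 CPM in precursors, 0, 0.102 and 0 CPM in immature and 0.890, 9.01 and 4.75 CPM in mature macrophages. Its log2 fold changes of -6.77 and -6.82 rest on few immature reads, and leaving out single libraries gave -6.14 without immature library 1 and -8.96 without immature library 2 against precursors, and -6.19, -9.01 and, without mature library 2, -6.06 against mature macrophages. Against mature macrophages Bmpr1a missed the threshold without immature library 2 (adjusted p = 0.0545), and Skil, at adjusted p = 0.0418 with all libraries, missed it without any 1 of 7 libraries (0.0579 to 0.146) and with the mouse number as a block (0.0822). Smad1, Smad4 and Smad5, which carry the signal, were not in any class. Smad4, for one, was at 79.3, 71.2 and 82.1 CPM in precursors, 82.2, 74.9 and 70.4 CPM in immature and 66.8, 56.3 and 64.7 CPM in mature macrophages.

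Immunoreceptors of the PILR and TREM families, a list also gathered after the data had been seen, held dips as well. Of 11 such genes tested, 5 were dip genes. Trem1, which amplifies inflammatory signals (ENSMUSG00000042265, chromosome 17, 48232768 to 48246924, plus strand), was at 24.4, 28.2 and 41.8 CPM in precursors, 0.0788, 0 and 0 CPM in immature and 37, 16.7 and 24.2 CPM in mature macrophages. It had 1 read over the 3 immature libraries, against 1591 in precursors and 916 in mature macrophages, so that it was 919-fold lower than in precursors (95% counting interval 165 to 36339) and 817-fold lower than in mature macrophages (146 to 32298). The fitted log2 fold changes of -9.53 and -9.26 were -11.67 and -11.41 without immature library 1, which held that read. Pilra, an inhibitory receptor, was at 103, 115 and 96.7 CPM in precursors, 10.7, 7.78 and 12.9 CPM in immature and 168, 109 and 246 CPM in mature macrophages. Pilrb1 and Pilrb2, its activating relatives, were at 28.6, 27.1 and 21.4 CPM in precursors, 3.15, 2.15 and 1.53 CPM in immature and 25.7, 22.3 and 24.4 CPM in mature macrophages for the first and 47.3, 35.1 and 48.7 CPM in precursors, 3.86, 3.27 and 1.92 CPM in immature and 36.8, 22.7 and 34.9 CPM in mature macrophages for the second. Immature libraries of all 3 lay below all others, with log2 fold changes of -3.33 ± 0.31, -3.46 ± 0.28 and -3.83 ± 0.31 against precursors and -4.06 ± 0.32, -3.37 ± 0.28 and -3.35 ± 0.30 against mature macrophages. Pilrb1 and Pilrb2 share 50.1% and 48.2% of their 31-base words with other genes and Pilra 28.5%, so how reads were split between them is uncertain. Trem3 was at 27.7, 35.2 and 39.3 CPM in precursors, 0.158, 0.307 and 0.895 CPM in immature and 2.1, 3.98 and 1.53 CPM in mature macrophages, low at both later stages. It missed the threshold against mature macrophages without immature library 2 (adjusted p = 0.0580) and with the precursors left out of the fit (0.0516), and its log2 fold changes of -6.34 and -2.57 were -7.14 and -3.37 without immature library 3.

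**Figure D3:**
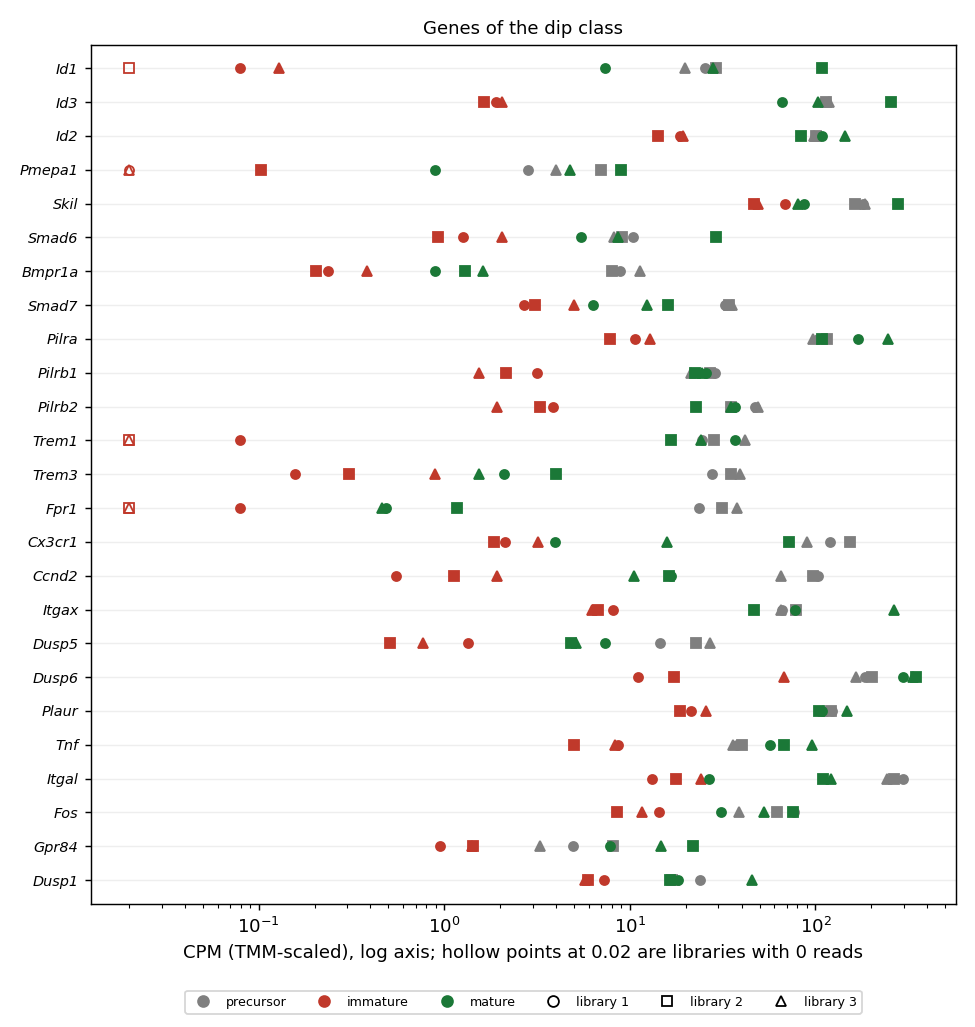
CPM on a log axis of 25 dip genes, 1 row a gene and 1 point a library, with colour for the stage and shape for the library number. Immature points lie to the left of both other stages, and Id1, Pmepa1, Trem1 and Fpr1 have immature libraries with 0 reads, drawn hollow at 0.02.

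Genes downstream of the CSF-1 receptor split between classes. Of 29 tested, 4 were dip genes (Ccnd2, Dusp5, Dusp6 and Phlda1), 2 rose steadily (Spred1 and Etv1) and none peaked. Dusp6, the phosphatase that inactivates ERK (ENSMUSG00000019960, chromosome 10, 99263231 to 99267489, plus strand), was at 185, 202 and 166 CPM in precursors, 11, 17.2 and 67.9 CPM in immature and 296, 349 and 334 CPM in mature macrophages. Immature library 3 was above the other libraries of its stage, and without it the log2 fold changes of -2.53 and -3.36 were -3.66 and -4.49. Dusp5, an ERK phosphatase of the nucleus, was at 14.6, 22.6 and 27.1 CPM in precursors, 1.34, 0.512 and 0.767 CPM in immature and 7.37, 4.8 and 5.13 CPM in mature macrophages, with -4.56 ± 0.41 and -2.67 ± 0.41, and 21.2% of its 31-base words occur in other genes. Ccnd2, cyclin D2, was at 104, 97.1 and 65.3 CPM in precursors, 0.552, 1.13 and 1.92 CPM in immature and 16.8, 16.1 and 10.5 CPM in mature macrophages. Cyclin D1, Ccnd1, had no dip and was at 141, 206 and 47.8 CPM in precursors, 5.59, 61.3 and 243 CPM in immature and 2590.4, 2980.1 and 2074 CPM in mature macrophages, spread widely over the immature libraries. It was lower than in mature macrophages (adjusted p = 0.0144 by edgeR) and did not pass against precursors (adjusted p = 0.765). Cdk6, the kinase that D cyclins bind, was at 181, 192 and 168 CPM in precursors, 56.8, 80.4 and 112 CPM in immature and 276, 223 and 446 CPM in mature macrophages, below both stages. Without immature library 3 the list held 8 dip genes. Of 23 immediate early genes, 3 dipped. Fos was at 76.5, 61.7 and 38.9 CPM in precursors, 14.4, 8.49 and 11.6 CPM in immature and 31, 75.8 and 53.1 CPM in mature macrophages, and Dusp1 at 23.8, 17 and 17.6 CPM in precursors, 7.25, 5.93 and 5.75 CPM in immature and 18.2, 16.4 and 45.5 CPM in mature macrophages, with -2.08 against mature macrophages or -1.45 without mature library 3. Fosl2, the third, had an adjusted p = 0.0319 against mature macrophages (edgeR) and missed the threshold without any 1 of 4 libraries (0.0504 to 0.140) and with the precursors left out of the fit (0.0911).

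Adhesion and chemotaxis genes also held dips. Of 20 integrin genes tested, 4 dipped, 2 rose steadily and 4 fell steadily. Itgax, the integrin subunit CD11c (ENSMUSG00000030789, chromosome 7, 128129547 to 128150657, plus strand), was at 65.8, 78.6 and 65.3 CPM in precursors, 8.12, 6.75 and 6.26 CPM in immature and 78, 46.5 and 266 CPM in mature macrophages, with log2 fold changes of -3.30 ± 0.55 and -4.20 ± 0.57, the last -3.14 without mature library 3. Itgal, the alpha subunit of LFA-1, was at 297, 265 and 243 CPM in precursors, 13.1, 17.8 and 24.3 CPM in immature and 26.6, 110.3 and 122 CPM in mature macrophages. Itgb2, the beta subunit that pairs with both, was at 1158, 1202 and 1208 CPM in precursors, 773, 888 and 796 CPM in immature and 2712, 1789 and 2165 CPM in mature macrophages, the dip gene nearest the threshold of those at 10 CPM or more. Its adjusted p against precursors was 0.0499, and it was 0.0503 to 0.133 without any 1 of 7 libraries and 0.0793 with the mouse number as a block. Itga8 was at 16.9, 14.8 and 9.55 CPM in precursors, 0.630, 3.48 and 6.01 CPM in immature and 40.2, 36.5 and 14.5 CPM in mature macrophages, and missed the threshold against precursors without precursor library 1 (0.0527) or immature library 2 (0.0504). Without immature library 3 its log2 fold changes of -2.08 and -3.22 were -2.75 and -3.89. Leaving out precursor library 1, or immature library 2, left 2 dip genes among the integrins. Of 32 chemotactic receptors tested, 5 dipped and 2 peaked, and 3 dipped without immature library 1 and 3 without immature library 2. Fpr1, a receptor of formyl peptides, was at 23.6, 31.2 and 37.6 CPM in precursors, 0.0788, 0 and 0 CPM in immature and 0.486, 1.17 and 0.459 CPM in mature macrophages, with 1 read over the immature libraries, 924-fold lower than in precursors (95% counting interval 166 to 36522) and 19.6-fold lower than in mature macrophages (3.17 to 810). Its fitted log2 fold changes of -9.50 and -4.00 were -11.64 and -6.14 without immature library 1. Cx3cr1, the receptor of fractalkine, was at 120.0, 154 and 90.1 CPM in precursors, 2.13, 1.84 and 3.2 CPM in immature and 3.97, 72.3 and 15.9 CPM in mature macrophages. It overlaps Wdr48 and other genes on the opposite strand, and Gorasp1, Csrnp1 and Xirp1 on its own strand, so its reads may be shared. Mature libraries differed widely, and against mature macrophages Cx3cr1 missed the threshold without immature library 1 (adjusted p = 0.0520) or 2 (0.0706) and had a log2 fold change of -2.08 without mature library 2 and of -2.69 with limma on the deposited log2 RPM values, against -3.69 in the fit of all counts. Gpr84, a receptor of medium-chain fatty acids, was at 4.94, 8.08 and 3.29 CPM in precursors, 0.946, 1.43 and 1.41 CPM in immature and 7.85, 22 and 14.7 CPM in mature macrophages, and 38.5% of its 31-base words occur in other genes.

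Single genes from other lists dipped with narrow spread. Tnf, the inflammatory cytokine, was at 37.8, 40.1 and 36 CPM in precursors, 8.67, 5.01 and 8.31 CPM in immature and 56.7, 67.4 and 95.6 CPM in mature macrophages, with -2.37 ± 0.26 and -3.32 ± 0.27. Plaur, the urokinase receptor, was at 123, 121 and 109.8 CPM in precursors, 21.4, 18.5 and 25.6 CPM in immature and 109, 104 and 147 CPM in mature macrophages, with -2.44 ± 0.20 and -2.46 ± 0.20. Nlrp3, the inflammasome sensor, was at 60.6, 67 and 68.6 CPM in precursors, 33.6, 30.3 and 31.6 CPM in immature and 58.4, 63.7 and 68 CPM in mature macrophages. For these 3 genes the immature libraries lay below all others. Actn1, an actin crosslinker of focal adhesions, was at 201, 198 and 230.1 CPM in precursors, 75.5, 93.8 and 83.3 CPM in immature and 167, 233 and 211 CPM in mature macrophages. It was 1 of 3 dip genes among 56 focal adhesion and podosome genes tested. 

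**Figure D4:**
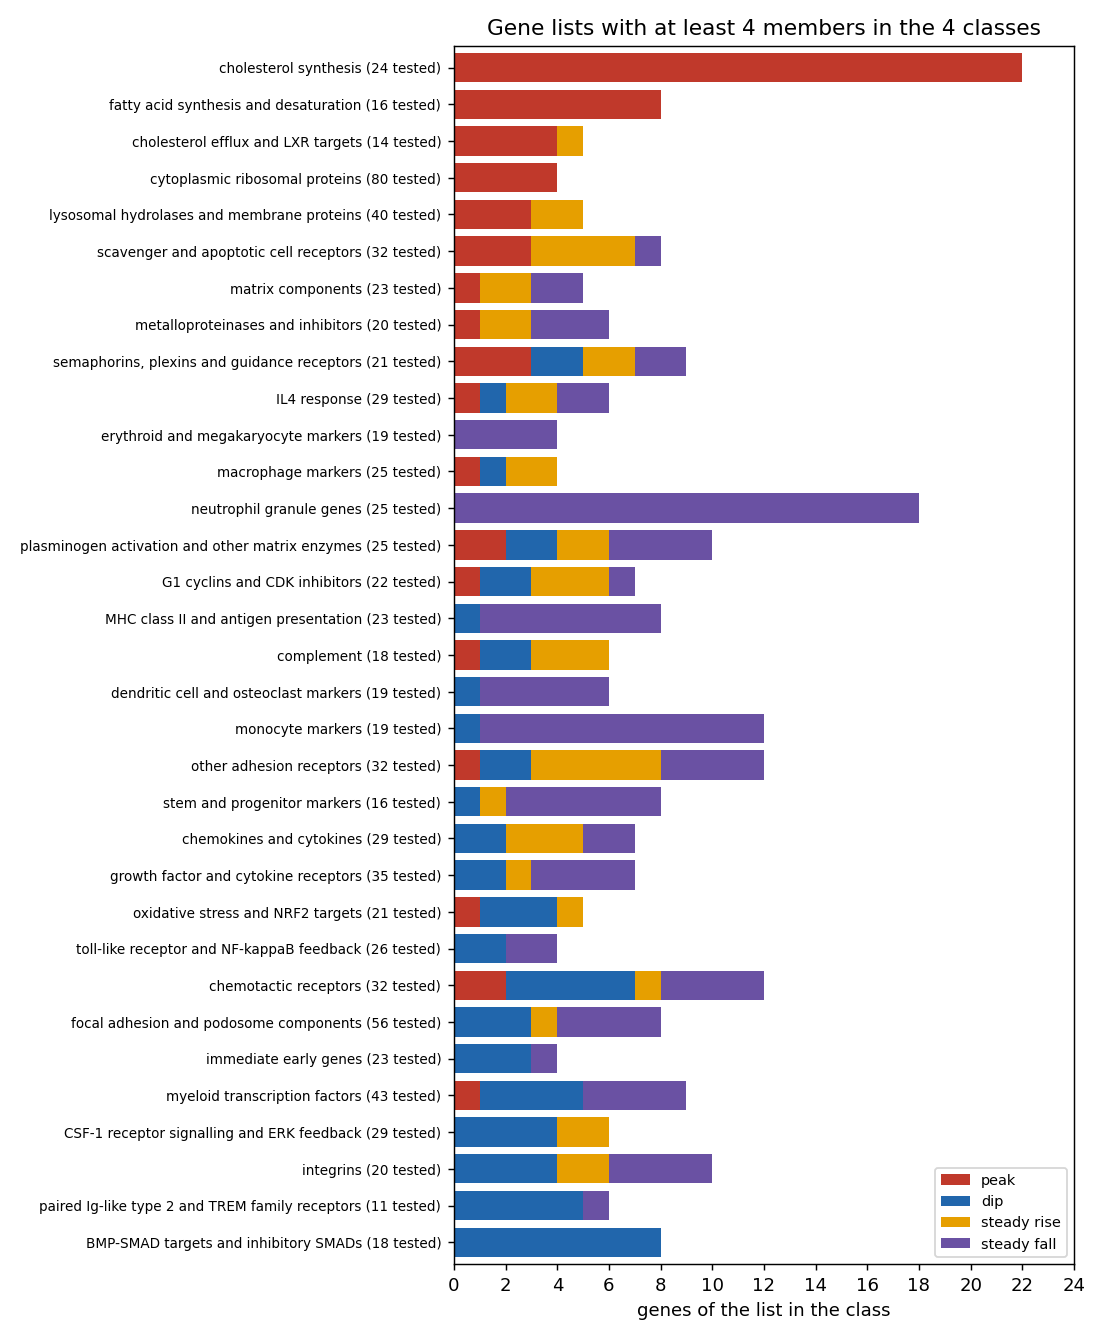
Bars give the number of genes of each list in the peak, dip, steady rise and steady fall classes, for lists with at least 4 such genes, and the count tested stands beside each name. Cholesterol synthesis has 22 peak genes of 24 tested, neutrophil granule genes have 18 steady falls of 25, and the BMP and SMAD list, gathered after the data had been seen, has 8 dip genes of 18.

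At the threshold, among genes with at least 10 CPM in the highest stage, the last peak gene was Zfp787 at 22, 23.6 and 27 CPM in precursors, 43.4, 43.8 and 47.3 CPM in immature and 32.2, 33 and 25.2 CPM in mature macrophages, with an adjusted p of 0.0498 for the weaker comparison, and the first gene outside was Mfsd1 at 111, 105 and 96.7 CPM in precursors, 414, 495 and 446 CPM in immature and 280.0, 362 and 261 CPM in mature macrophages, with 0.0513 (edgeR). Zfp787 missed the threshold without any 1 of the 9 libraries (adjusted p = 0.0632 to 0.139), and with the mouse number as a block (0.101). Just outside the dip class was Cttn at 10.9, 8.2 and 15.3 CPM in precursors, 2.84, 2.87 and 2.94 CPM in immature and 4.7, 7.25 and 5.74 CPM in mature macrophages, with an adjusted p of 0.0503. The counts of genes moved with single libraries. Without immature library 1 there were 197 peak and 175 dip genes, 183 and 164 of them the same as with all libraries. Without immature library 2 there were 161 and 138, of which 159 and 136 were the same. Peak genes that stayed in the class without any 1 of the 9 libraries numbered 129 of 328, and dip genes 126 of 335. For the steady classes these were 96 of 274 and 177 of 323. Steady rises numbered 159, 105 and 163 without immature library 1, 2 and 3, and steady falls 201 without immature library 2 and 564 without mature library 3. Of the genes described here, Scd1, Scd2, Fads2, Insig1, Mvd, Hmgcs1, Fdps, Lss, Acat2, Abcg1, Ednrb, Cd28, Cbr2, Fabp5, Id1, Id2, Id3, Trem1, Pilra, Itgax, Tnf and Plaur stayed in their class without each of the 9 libraries.

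The immature libraries did not share 1 order across peak genes. Immature library 1 was the highest of its stage for 211 of 328 peak genes (64.3%), against 40.0% of all genes tested with reads at that stage, and the highest for none of the 22 sterol genes or the 8 fatty acid genes. It was the lowest for all 22 sterol genes and 7 of the 8 fatty acid genes. Among the other 298 peak genes it was the highest for 211 (70.8%). For dip genes with reads at that stage, immature library 3 was the highest for 209 of 332 (63.0%) and library 1 the lowest for 192. Genes of steady rise were highest in library 3 for 121 of 274 (44.2%) and genes of steady fall highest in library 1 for 156 of 323 (48.3%). Mki67 and histone RNA, given above, were lowest in library 1 as well, and the part of this difference in the classes was not tested.

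**Figure D5:**
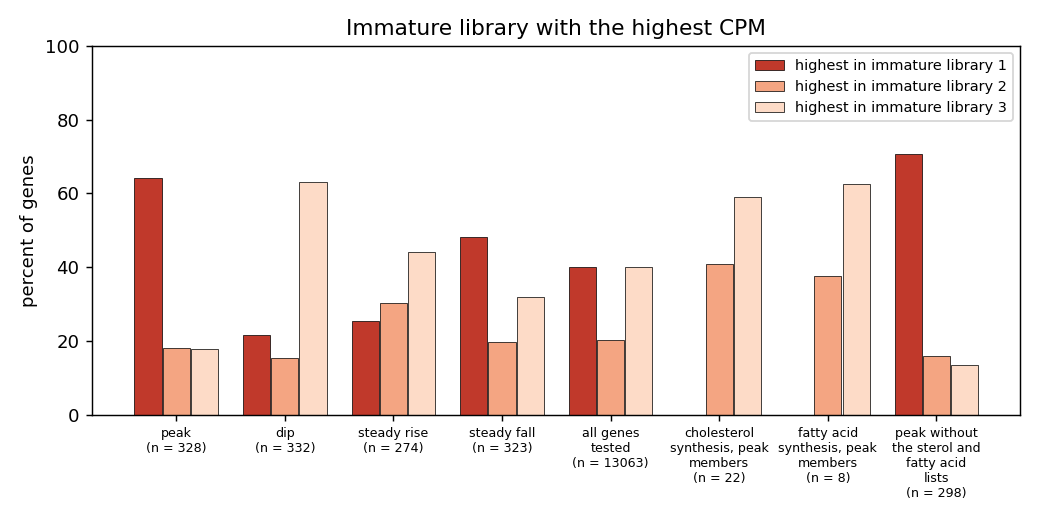
Bars give, for each class and for the sterol and fatty acid genes of the peak class, the percent of genes whose highest CPM of the immature stage was in library 1, 2 or 3. Library 1 is highest for 64.3% of peak genes and for 0 of the 22 sterol genes, against 40.0% of all genes tested.

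The IL4 table gave a readout on other libraries, which the classes had not used. There 937 of 8936 genes tested (10.5%) were higher and 918 (10.3%) lower with IL4 by edgeR, and with the mouse number as a block the 2 directions together were 2883 in place of 1855. Of the 265 peak genes tested there, 34 (12.8%) were higher and 63 (23.8%) lower with IL4, or 48 and 93 with the block, and the median log2 fold change was -0.23. Without IL4 library 2, 21 were higher. Of 256 dip genes, 53 (20.7%) were higher and 48 (18.8%) lower, against 896 (10.1%) and 909 (10.3%) of the 8833 genes found in both tables. Of 217 steady rises 47 were higher and 38 lower, and of 97 steady falls 29 and 12, or 33 and 20 with the block. No test of these shares was made. The sterol genes leaned one way. Of 19 tested, 12 were lower with IL4 (16 with the block, and 10 to 14 without any 1 of the 6 libraries) and none higher, with a median of -1.26, among them Insig1 at -1.32 ± 0.29 and Lss at -1.46 ± 0.39 (adjusted p = 0.0207 by edgeR, or 0.0819 without unstimulated library 3), while Hmgcs1, at -0.56 ± 0.25, did not pass (adjusted p = 0.157 by edgeR) and passed with the block (adjusted p = 0.0469). Of 7 fatty acid genes 4 were lower (2 to 5 without any 1 library) and none higher. Scd2 was at 97.1, 28 and 59.4 CPM without and 23.8, 31.1 and 10.5 CPM with IL4, with an adjusted p = 0.0326 (edgeR) that became 0.107, 0.0624 and 0.0936 without unstimulated library 1, unstimulated library 3 and IL4 library 3. Fads2 was at 25.6, 9.48 and 28.4 CPM without and 0, 1.65 and 0.329 CPM with IL4. In these later cultures, whose table was scaled on its own, every library without IL4 was above every mature library of the differentiation table for Scd2 and Fads2. The low mature level of both genes was thus not seen in both sets of mature libraries. Of the 4 efflux peak genes, Abcg1 was higher with IL4, at 2.47 ± 0.39, Apoe was lower, at -2.08 ± 0.41 (adjusted p = 0.00416 by edgeR), and the median was -0.49. With the block Lpcat3 was lower as well (adjusted p = 0.0215), which it was not without it (0.0950).

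Dip genes moved in both directions with IL4. Itgax was at 23.2, 66.8 and 12.6 CPM without and 4242, 2723 and 2356 CPM with IL4, with 6.56 ± 0.57. All 5 PILR and TREM dip genes were lower, with a median of -2.66, and Pilra was at 363, 232 and 191 CPM without and 84.6, 44.7 and 51.4 CPM with IL4. All 3 immediate early dip genes were higher, Fosl2 at 2.37 ± 0.26. Of 6 BMP and SMAD dip genes tested 3 were higher (Id2, Pmepa1 and Smad7). Id2 missed the threshold without unstimulated library 1 (adjusted p = 0.0689) or 3 (0.0832) by edgeR. Id1 was at 5.16, 10.7 and 11.6 CPM without and 1.61, 21.5 and 4.28 CPM with IL4, and did not pass (adjusted p = 0.989). Id3 was at 3.29, 7.83 and 1.48 CPM without and 0.536, 28.5 and 2.30 CPM with IL4, and did not pass (adjusted p = 0.410 by edgeR). Every library of Id3 without IL4 was below every mature library of the differentiation table, which was scaled separately. The high mature level of Id3 was thus not seen in both sets of mature libraries.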

How the data were processed

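How reads were counted, with which use of strand, is not given in the sources used here. Per the labels' protocols, 1 µg of total RNA from a column kit with DNase was made into Ion Torrent libraries, and HISAT2 2.0.5, edgeR and the builds GRCm38.p6 and GRCm39.p6 are named in the submitters' processing notes. Raw counts of reads for each gene were deposited by the authors, with log2 RPM values for each library and p-values and log2 fold changes of their own comparisons. Differentiation libraries held 7897769 to 22167294 reads and IL4 libraries 2408531 to 4214266. Rows without a gene identifier (0.338% and 0.0148% of reads) were not removed before the fits. They were left out only where genes of the differentiation table were matched to the IL4 table.

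From the counts, edgeR 4.0.16 in R 4.3.3 (filterByExpr with a minimum count of 10, TMM, quasi-likelihood test, Benjamini-Hochberg adjustment) was fitted to all 9 differentiation libraries, and separately to the 6 IL4 libraries. Scripts were tested on simulated data. Members and gene lists were chosen with earlier results of these data known, and 2 lists (BMP and SMAD, PILR and TREM) were added after the values were seen. Named genes were the 15 peak and 15 dip genes with the largest smaller fold change, with no overlap and at least 10 CPM, 5 of each steady class, up to 3 of each list at 5 CPM or more, those at the threshold and 5 fixed markers. Further list members, and genes named because they were not in a class, were chosen after their values were seen.

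Mice carry the numbers 1 to 3 in the titles of each group. Deviations of same-numbered libraries from their group means correlated at -0.129 to 0.165 in the differentiation table and at 0.591, 0.175 and 0.413 in the IL4 table, whose columns carry other mouse codes in each arm, so there the pairing rests on the numbers and these correlations. Differently numbered libraries of the IL4 arms correlated at -0.487 to 0.247, the highest of which is above the 0.175 of number 2. The pairing in that table is therefore uncertain. Alternatives were DESeq2 1.42.0, limma 3.58.1 on the deposited log2 values, other scaling and filters, stricter calls, the mouse number as a block and leaving out each library. Words of 31 bases of each gene's transcripts were looked for in other genes on both strands, and promoters were taken from RefSeq. Some genes of the lists are counted but not reported here by name.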

Additional observations from a re-analysis of the deposited data

How the results depend on the processing

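With all 9 libraries there were 328 peak, 335 dip, 274 steady rise and 323 steady fall genes. With each comparison fitted on its own 6 libraries there were 209 dip, 173 steady rise and 163 steady fall genes, and 1245 genes differed between immature and mature macrophages in place of 1991. At an adjusted p under 0.001 the classes held 19, 30, 16 and 52 genes and the comparisons with precursors and mature macrophages 2185 and 210. At least 2-fold in each comparison were 182 peak, 206 dip and 155 steady rise genes. With the larger of the 2 p-values adjusted, the classes held 181, 169, 136 and 209 genes. The authors' deposited lists gave 222 dip genes. Leaving out 1 library gave 161 to 388 peak, 138 to 368 dip, 105 to 386 steady rise and 201 to 564 steady fall genes, 5173 to 7297 genes against precursors, 1007 to 2702 against mature macrophages and 1375 to 1694 with IL4. With the mouse number as a replicate block there were 254 peak, 244 dip, 191 steady rise and 278 steady fall genes, and 2883 genes changed with IL4 in place of 1855. Of 4247 values of named genes under an alternative, 4011 kept direction and call, 222 lost the call, 9 gained it and 5 changed sign. These were Cd68 against mature macrophages, at -0.08 without immature library 1 and -0.15 without mature library 2, and Mki67, at -0.07, -0.13 and -0.21 without immature library 2, immature library 3 and mature library 1, and neither passed with all libraries. Leaving out mature library 3 gave the highest values of these genes, 0.61 for Cd68 and 0.68 for Mki67. The causes were not tested. Genes with few immature reads, such as Trem1 and Id1, have folds limited by depth.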
